A study of Homo sapiens with 3 samples.

Results

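The genes described here encode the enzymes that oxidise foreign and endogenous small molecules and then attach a polar group to them. They are the cytochrome P450 genes, the UDP-glucuronosyltransferases (UGT1A and UGT2B), the glutathione S-transferases (GST and MGST) and the sulfotransferases (SULT). Members were chosen by the start of the gene symbol. The rule itself uses no measured value, but it was set with earlier results of these data known. CYP51A1, a cholesterol synthesis gene, was not counted as a member. The rule took 87 of the 18856 genes that were listed in at least 1 of 3 libraries. Pseudogenes and an antisense gene whose symbols match the rule are counted as members.

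HBE cells, a line of human bronchial epithelium, were sequenced by LIEA and by Smart-seq2, and A549 cells, a line from a human lung adenocarcinoma, were sequenced by LIEA. LIEA is a low-input mRNA sequencing method read on Ion Torrent, Smart-seq2 is a full-length cDNA method read here on Illumina, and each library was made from about 10 pg of polyadenylated mRNA. No treatment or genetic change is named for any group, and both are lines in culture, which limits them as models of the airway. Each group had 1 library, so no difference has a replicate check and no test was made.

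P450 enzymes carry a haem group and insert oxygen into their substrates. Electrons are passed on by POR and cytochrome b5, or by FDXR and FDX1 for the mitochondrial enzymes. Families 1 to 3 are known mainly for drugs and carcinogens, family 4 for fatty acids, and the others for vitamin D, retinoic acid, steroids and sterols. UGT enzymes transfer glucuronic acid, GST enzymes transfer glutathione and SULT enzymes transfer sulfate to lipophilic molecules. Lung epithelium meets inhaled chemicals directly, and several of these genes are known targets of AHR, the receptor for polycyclic aromatic compounds, or of NFE2L2, the regulator of the antioxidant response.

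Levels are given as rpkM, the reads of a gene divided by transcript length and by the mapped total of the library, which allows genes of different length to be compared. The reads behind each level were worked out from the deposited log2 rpkM, and the totals were 4605855 reads for HBE LIEA, 4154060 for A549 LIEA and 9845150 for HBE Smart-seq2. A gene that is not listed had no reads. Such a gene was set at 3 reads in that library, the upper limit that a count of 0 allows, which is 0.651, 0.722 and 0.305 parts per 1000000 reads in the same order. A difference was computed where a gene had at least 10 reads in at least 1 of the 2 libraries compared, and it was called when it reached 4-fold, or 2 on the log2 scale. Intervals are exact 95% binomial intervals on the reads and cover counting error only.

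Of the 87 members, 55 were listed in HBE LIEA, 75 in A549 LIEA and 62 in HBE Smart-seq2. Of all 18856 genes, 16073, 16711 and 16498 were listed in the same order. At least 10 reads were found for 33, 37 and 38 members in the same order, and for 25 members in all 3 libraries. Another 39 members stayed below 10 reads everywhere and had at most 7 reads in any library. A549 LIEA alone listed 17 members, of which 15 had fewer than 10 reads, so most of these listings rest on a few reads. The share of all genes listed in A549 LIEA alone was not computed, so this count has no background. The members' rpkM summed to 1360 in HBE LIEA, 2010 in A549 LIEA and 1320 in HBE Smart-seq2. GSTP1 made up 59.6%, 34.9% and 47.5% of these sums. GSTP1, GSTK1, GSTO1, GSTT2 and MGST1 together made 80.9% of the sum in HBE LIEA. In A549 LIEA the first 5 members were GSTP1, CYP24A1, MGST1, GSTK1 and MGST3, with 74% of the sum.

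Between A549 LIEA and HBE LIEA, 21 of 44 members compared (47.7%) were at least 4-fold apart, where 2624 of all 13694 genes compared were (19.2%). Higher in A549 were 14 members (31.8%), against 11.3% of all genes, and lower were 7 members (15.9%), against 7.87% of all genes. The higher members include UGT1A1, UGT1A7 and UGT1A9, entries of the same locus that share most of their sequence, so these calls are not independent. The median log2 difference over the members compared was 0.93, and over all genes compared it was -0.13. Among the 44 members, 26 had at least 10 reads in both libraries, and 5 of these were called higher (19.2%) and 1 lower (3.85%), where 4.19% and 3.7% of the 11349 genes with as many reads in both were. In either direction that is 6 of 26 members (23.1%), beside 7.89% of these genes. With no filter on low values, 21 of 84 members (25%) and 16.1% of all genes were called. The other calls are of members that entered through the library in which they were high: 11 through A549 LIEA alone, of which 9 were called higher, and 7 through HBE LIEA alone, of which 6 were called lower. Where both libraries had 10 reads or more, the median difference of all such genes was -0.16, and differences below are relative to the mapped totals and not to this shift.

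**Figure D1:**
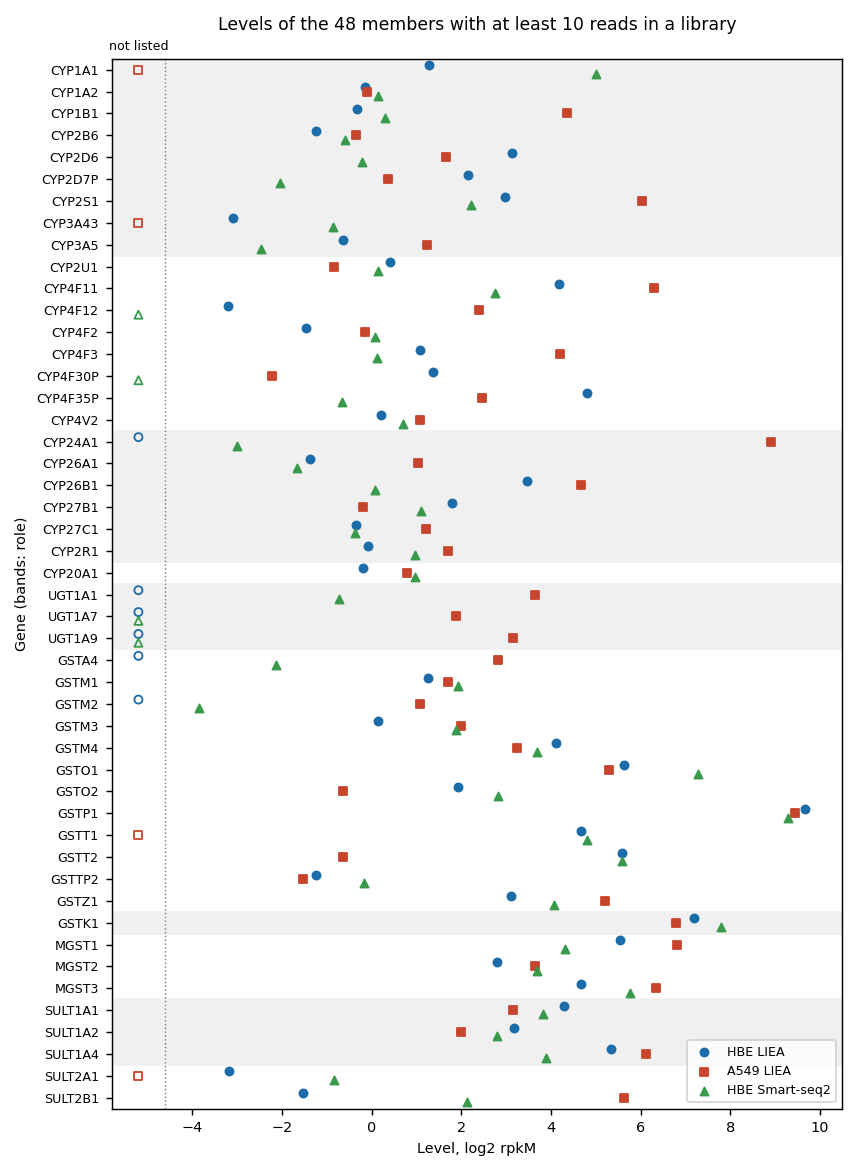
Level as log2 rpkM (x axis) of the 48 members with at least 10 reads in some library (y axis, shaded by role) in HBE LIEA (circles), A549 LIEA (squares) and HBE Smart-seq2 (triangles). Open symbols left of the dotted line are genes not listed in that library, and CYP24A1 is at 8.91 in A549 LIEA and is not listed in HBE LIEA.

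Among the xenobiotic P450 genes of families 1 to 3, CYP1B1 and CYP2S1 were higher in A549 and CYP1A1 was higher in HBE. This role has 21 members, of which 12 stayed below 10 reads in all 3 libraries. CYP1B1, which activates polycyclic hydrocarbons and hydroxylates oestradiol, had 0.801 rpkM (19 reads) in HBE LIEA, 20.6 rpkM (441 reads) in A549 LIEA and 1.22 rpkM (62 reads) in HBE Smart-seq2. Both HBE libraries were low and the A549 library was high. The A549 to HBE difference in LIEA was 25.7-fold, or 4.69 on the log2 scale (4.03 to 5.43). CYP2S1, a P450 of epithelia that is expressed outside the liver, had 7.87 rpkM (95 reads), 65.8 rpkM (716 reads) and 4.61 rpkM (119 reads) in the same order. It was 8.36-fold higher in A549 (log2 3.06, 2.75 to 3.39).

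CYP1A1, the classic AHR target that oxidises polycyclic aromatic hydrocarbons, had 2.41 rpkM (29 reads) in HBE LIEA and 32.3 rpkM (830 reads) in HBE Smart-seq2, and it was not listed in A549 LIEA. The level in A549 was therefore at least 8.72-fold lower than in HBE LIEA. The 2 HBE libraries were themselves 13.4-fold apart, with the Smart-seq2 library higher (log2 difference of LIEA to Smart-seq2 -3.74, -4.33 to -3.21), so the size of the HBE level depended on the library. CYP1A2, its neighbour in the family, had 0.903, 0.924 and 1.1 rpkM, with 13, 12 and 34 reads, and the A549 to HBE interval in LIEA ran from -1.23 to 1.28 on the log2 scale. CYP1A1 and CYP1B1 thus lay on opposite sides between the cell lines although both are known AHR targets. AHR itself had 15.4 rpkM in HBE LIEA and 16.3 rpkM in A549 LIEA, and its log2 difference was 0.08.

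The sequence before the CYP1A1 start is shown because this gene differed both between the cell lines and between the HBE libraries. It covers 250 bases upstream of the RefSeq start on GRCh38.p14, chr15:74725529-74725778 on the minus strand, and capitals mark GCGTG, the core of the site bound by AHR with ARNT, on either strand.
CYP1A1: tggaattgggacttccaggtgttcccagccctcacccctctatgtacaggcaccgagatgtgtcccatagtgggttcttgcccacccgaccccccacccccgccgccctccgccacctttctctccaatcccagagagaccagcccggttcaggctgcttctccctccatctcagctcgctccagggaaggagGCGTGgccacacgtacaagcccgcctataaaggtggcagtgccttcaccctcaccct
Counted over 300 bases around each start, GCGTG is found in 24 of the 79 promoter windows of 62 members (30.4%) and in 36.5% of all 35116 windows. The match is a description of the letters, and no binding was measured.

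CYP2D6, which clears many drugs, had 8.77 rpkM (67 reads) in HBE LIEA, 3.19 rpkM (22 reads) in A549 LIEA and 0.857 rpkM (14 reads) in HBE Smart-seq2. Its pseudogene CYP2D7P had 4.39, 1.29 and 0.242 rpkM with 34, 9 and 4 reads. Both were higher in HBE LIEA than in HBE Smart-seq2, CYP2D6 by 10.2-fold and CYP2D7P by 18.2-fold, and in A549 they lay 2.75-fold and 3.41-fold below HBE LIEA. Of the 43-base windows of CYP2D6, 38.9% also occur in CYP2D7P, so reads of the pair can be divided either way. CYP3A5, a drug-metabolising P450 of lung and gut, had 0.646 rpkM (10 reads), 2.37 rpkM (33 reads) and 0.181 rpkM (6 reads), and its A549 to HBE difference was just under the call at log2 1.87 (0.82 to 3.06). CYP2B6 had 6, 10 and 20 reads and CYP3A43 had 1, 0 and 10 reads. Major liver enzymes were at the level of single reads: CYP3A4 had 0, 2 and 1 reads, and CYP2E1 had 1, 3 and 0. The others of this role, among them CYP2A6, CYP2A13, CYP2F1, CYP2W1 and CYP2C18, had at most 7 reads.

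In the fatty acid P450 genes, 3 enzymes of the CYP4F cluster were higher in A549 and 2 CYP4F pseudogenes were lower. CYP4F11, which hydroxylates long-chain fatty acids and vitamin K, had 18.0 rpkM (282 reads) in HBE LIEA, 78.1 rpkM (1101 reads) in A549 LIEA and 6.76 rpkM (226 reads) in HBE Smart-seq2, a 4.33-fold difference in LIEA (log2 2.11, 1.92 to 2.31). CYP4F3, which inactivates leukotriene B4, had 2.11 rpkM (29 reads), 18.4 rpkM (228 reads) and 1.09 rpkM (32 reads). It was 8.72-fold higher in A549 (log2 3.12, 2.56 to 3.73). CYP4F12 had 1 read in HBE LIEA, 44 reads (5.28 rpkM) in A549 LIEA and none in HBE Smart-seq2, and its log2 difference of 5.61 has an interval from 3.06 to 10.94. For these enzymes the A549 value was above both HBE values. They lie near each other on chromosome 19 of GRCh37: CYP4F3 at chr19:15751707-15773635, CYP4F12 at chr19:15783828-15807984, CYP4F2 at chr19:15988833-16008887 and CYP4F11 at chr19:16023177-16045677. CYP4F2, which has 22.6% of its windows in common with other listed genes, mostly CYP4F3, had 4, 9 and 25 reads and was not compared in LIEA.

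The pseudogene CYP4F35P on chromosome 18 had 27.9 rpkM (369 reads) in HBE LIEA, 5.52 rpkM (66 reads) in A549 LIEA and 0.636 rpkM (18 reads) in HBE Smart-seq2. The highest and the lowest value were thus both from HBE. The LIEA value of HBE was 43.8-fold above Smart-seq2 (log2 5.45, 4.77 to 6.22), more than the 5.04-fold by which it exceeded A549. CYP4F30P on chromosome 2 was also higher in HBE LIEA, with 27 reads in HBE and 2 in A549, and was not listed in HBE Smart-seq2, which puts HBE LIEA at least 19.2-fold higher. CYP4F35P has 25.2% of its windows in common with other listed genes, mostly C21orf15. CYP4V2, a fatty acid hydroxylase of the retina, had 1.15, 2.10 and 1.62 rpkM, and CYP2U1 had 1.32, 0.557 and 1.11 rpkM, all within 2.38-fold between the LIEA libraries. CYP4A11, CYP4B1, CYP4F22, CYP4F8, CYP2J2 and CYP4X1 had at most 3 reads in any library.

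The vitamin D and retinoic acid P450 genes held the largest difference among the members. CYP24A1, the mitochondrial enzyme that inactivates vitamin D hormone, had 6533 reads (482 rpkM) in A549 LIEA, was not listed in HBE LIEA and had 4 reads (0.124 rpkM) in HBE Smart-seq2. Its level exceeded that of 99.2% of the genes listed in A549 LIEA and was the second of the members after GSTP1. The level in A549 LIEA was at least 2410-fold higher than in HBE LIEA (log2 at least 11.24). CYP27B1, which makes the active hormone, went the other way, with 3.49 rpkM (40 reads) in HBE LIEA, 0.871 rpkM (9 reads) in A549 LIEA and 2.16 rpkM (53 reads) in HBE Smart-seq2. Its difference of 4.01-fold lies at the threshold and its log2 interval runs from -3.23 to -0.94. CYP2R1, which makes the precursor of the hormone in liver, had 0.939, 3.27 and 1.95 rpkM with a log2 difference of 1.80 (0.52 to 3.27), and CYP27A1 had 4 reads in HBE Smart-seq2 and none in LIEA. VDR, the receptor of the hormone and a known activator of CYP24A1, had 21.4 rpkM (497 reads) in HBE LIEA and 0.620 rpkM (13 reads) in A549 LIEA. The line with the high CYP24A1 level was thus the one with the low VDR level.

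Among the CYP26 genes, which clear retinoic acid, CYP26B1 was the more abundant. It had 11.1 rpkM (233 reads) in HBE LIEA, 25.7 rpkM (486 reads) in A549 LIEA and 1.05 rpkM (47 reads) in HBE Smart-seq2. The HBE libraries differed by 10.6-fold (log2 3.41, 2.95 to 3.89), more than the 2.31-fold between the cell lines. CYP26A1 had 4, 19 and 7 reads and was 5.27-fold higher in A549 with a wide log2 interval of 0.81 to 4.41. CYP27C1, a retinoid desaturase of skin, had 0.788, 2.31 and 0.780 rpkM, with both HBE libraries 1.01-fold apart and a log2 difference of 1.55 (0.72 to 2.45) in A549. CYP26C1 had 2 reads in HBE LIEA alone. CYP20A1, whose substrate is not known, had 0.873 rpkM (44 reads), 1.72 rpkM (78 reads) and 1.94 rpkM (209 reads).

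The steroid and sterol P450 genes were at the level of a few reads. CYP11A1, CYP19A1, CYP21A2 and the pseudogene CYP21A1P summed to 5 reads in each library. CYP39A1 and CYP8B1, enzymes of bile acid synthesis, summed to 5, 3 and 4 reads. No difference between libraries was detectable for these genes at this depth.

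The UGT1A members were found in A549 and nearly absent from HBE. All 8 were listed in A549 LIEA, with 264 reads and a summed 26.9 rpkM, none was listed in HBE LIEA, and HBE Smart-seq2 listed UGT1A1 alone, with 14 reads (0.603 rpkM). UGT1A1, which glucuronidates bilirubin, had 122 reads (12.5 rpkM) in A549 LIEA and was at least 45.1-fold higher than in HBE LIEA. UGT1A9, which glucuronidates phenols and many drugs, had 88 reads (8.92 rpkM) and was at least 32.5-fold higher. UGT1A7, known from stomach and upper airway, had 36 reads (3.71 rpkM) and was at least 13.3-fold higher. UGT1A6, UGT1A10, UGT1A8, UGT1A5 and UGT1A4 had 6, 4, 4, 3 and 1 reads in A549 LIEA. The read number of UGT1A9 rests on the annotated length, since its deposited value alone fixes only the ratio of reads to length. For 16 members, UGT1A9 included, the smallest whole reads were multiplied by a factor chosen from annotated lengths. The factor was 88 for UGT1A9, 3 for GSTA4 and GSTT2, and 2 for GSTP1, GSTM4 and SULT1A4. Reads, intervals and bounds of these members depend on it.

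The UGT1A genes are alternative first exons of 1 locus on chromosome 2 of GRCh37, from UGT1A8 at chr2:234526279-234681946 to UGT1A1 at chr2:234668916-234681946, all on the plus strand and with the same end. Each transcript ends in the same 1480 bases, which are 60.3% to 62.7% of its length. The junctions of the 3 members with at least 10 reads are shown because they mark where a read stops naming a single gene: 30 bases of the own first exon in lower case and the first 30 bases of the shared part in capitals, from GENCODE release 44 transcripts.
UGT1A1: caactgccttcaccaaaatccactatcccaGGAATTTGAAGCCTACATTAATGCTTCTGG
UGT1A7: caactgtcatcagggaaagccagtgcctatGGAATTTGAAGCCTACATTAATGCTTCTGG
UGT1A9: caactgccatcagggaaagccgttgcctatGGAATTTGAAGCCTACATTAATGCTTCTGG
Reads inside the shared part could have been given to any of the 8 entries, so the division among UGT1A genes is uncertain. How the authors' counting treated such reads is not given in the sources used here, and its part in the sum over the genes was not tested. UGT2B10, UGT2B15 and UGT2B7 summed to 0 reads in HBE LIEA, 8 in A549 LIEA and 3 in HBE Smart-seq2.

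Among the glutathione S-transferases, GSTP1 was the most abundant member in all 3 libraries. GSTP1, the pi-class enzyme of lung epithelium, had 813 rpkM (3588 reads) in HBE LIEA, 702 rpkM (2792 reads) in A549 LIEA and 625 rpkM (5894 reads) in HBE Smart-seq2. The A549 to HBE difference of log2 -0.21 (-0.28 to -0.14) was smaller than the difference of 0.38 (0.32 to 0.44) between the HBE libraries. The 250 bases upstream of its start are shown as those of the most abundant member, at chr11:67583562-67583811 on the plus strand of GRCh38.p14, with capitals for TGACNNNGC, the core of the antioxidant response element, on either strand.
GSTP1: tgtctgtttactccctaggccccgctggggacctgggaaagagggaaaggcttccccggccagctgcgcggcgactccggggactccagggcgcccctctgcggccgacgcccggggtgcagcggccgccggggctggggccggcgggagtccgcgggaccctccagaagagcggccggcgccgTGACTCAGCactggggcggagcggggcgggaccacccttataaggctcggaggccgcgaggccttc
TGACNNNGC is found in 14 of the 79 promoter windows of members (17.7%) and in 13.3% of all windows, again as a description of letters.

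The theta class was found in HBE and was at or near 0 in A549. GSTT1, which detoxifies halogenated alkanes, had 25.4 rpkM (124 reads) in HBE LIEA and 27.9 rpkM (291 reads) in HBE Smart-seq2, and was not listed in A549 LIEA, so A549 was at least 37.3-fold lower. GSTT2 had 48.3 rpkM (249 reads) and 47.9 rpkM (528 reads) in the HBE libraries and 0.645 rpkM (3 reads) in A549 LIEA, which is 74.9-fold lower (log2 -6.23, -8.51 to -4.66). For both genes the HBE libraries agreed within counting error, with LIEA to Smart-seq2 log2 intervals of -0.45 to 0.17 for GSTT1 and -0.21 to 0.23 for GSTT2. The genes are neighbours on GRCh37, GSTT2 at chr22:24322249-24326106 and GSTT1 at chr22:24376133-24384680. GSTT2B, a near-identical copy of GSTT2, was not listed, so reads of either copy cannot be told apart here. The neighbouring pseudogene GSTTP2 had 4, 3 and 18 reads in HBE LIEA, A549 LIEA and HBE Smart-seq2.

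The alpha, mu, omega and zeta classes moved in both directions. GSTA4, which conjugates the lipid peroxidation product hydroxynonenal, had 39 reads (7 rpkM) in A549 LIEA, none in HBE LIEA and 3 in HBE Smart-seq2, so A549 was at least 14.4-fold higher. GSTA1 and GSTA2 had 2 reads each in A549 LIEA alone. GSTM2 had 13 reads in A549 LIEA, none in HBE LIEA and 1 in HBE Smart-seq2, at least 4.80-fold higher in A549. GSTM1 had 2.38, 3.25 and 3.77 rpkM, GSTM3 had 1.1, 3.97 and 3.72 rpkM, and GSTM4 had 17.4, 9.45 and 13 rpkM. For GSTM3 the log2 difference between cell lines was 1.84 (1.12 to 2.62), and the HBE Smart-seq2 value lay beside that of A549 and not beside HBE LIEA. GSTM1 shares 58.6% of its windows with other listed mu-class genes and its reads are uncertain for that reason. GSTZ1, which also degrades tyrosine breakdown products, had 8.68 rpkM (57 reads), 36.7 rpkM (217 reads) and 16.8 rpkM (235 reads). It was 4.22-fold higher in A549 than in HBE LIEA (log2 2.08, 1.65 to 2.52), but not 4-fold above HBE Smart-seq2. GSTO2 had 26, 4 and 103 reads and was 5.86-fold lower in A549 (log2 -2.55, -4.53 to -1.02), while GSTO1 had 49.7, 39.2 and 154 rpkM, which is 1.27-fold apart in the LIEA libraries.

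The mitochondrial GSTK1 and the membrane-bound MGST genes had at least 10 reads in all libraries, and none was called in either comparison. GSTK1 had 146 rpkM (826 reads) in HBE LIEA, 111 rpkM (565 reads) in A549 LIEA and 222 rpkM (2684 reads) in HBE Smart-seq2. MGST1, an enzyme of the endoplasmic reticulum and outer mitochondrial membrane, had 46.3, 113 and 19.9 rpkM. MGST2, which can make leukotriene C4, had 6.97, 12.4 and 12.9 rpkM, and MGST3 had 25.5, 81.8 and 54.5 rpkM. The MGST genes were each higher in A549 LIEA than in HBE LIEA, by log2 1.29 (1.09 to 1.5), 0.84 (0.25 to 1.43) and 1.68 (1.44 to 1.94), below the 4-fold call. Only for MGST1 and MGST3 did the A549 value also exceed that of HBE Smart-seq2.

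Among the sulfotransferases, SULT2B1 carried the difference. SULT2B1, which sulfates cholesterol and hydroxysteroids, had 0.347 rpkM (2 reads) in HBE LIEA, 49.2 rpkM (256 reads) in A549 LIEA and 4.38 rpkM (54 reads) in HBE Smart-seq2. The A549 to HBE ratio in LIEA was 142-fold, with a log2 interval from 5.28 to 10.20. HBE Smart-seq2 was itself 12.6-fold above HBE LIEA, so the ratio to HBE depended on the library, and A549 was the highest of the 3 in either case. The 250 bases upstream of its start are shown as those of the member with the largest measured ratio that is no bound, at chr19:48551922-48552171 on the plus strand of GRCh38.p14, with capitals for GCGTG.
SULT2B1: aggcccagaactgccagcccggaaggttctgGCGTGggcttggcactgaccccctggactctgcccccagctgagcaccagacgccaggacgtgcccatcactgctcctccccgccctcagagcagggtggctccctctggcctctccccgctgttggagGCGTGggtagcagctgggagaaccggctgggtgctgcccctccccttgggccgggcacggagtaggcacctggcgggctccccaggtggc
SULT2A1, the hydroxysteroid sulfotransferase of liver and adrenal gland, had 1, 0 and 11 reads.

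None of the SULT1A genes, which sulfate phenols and catecholamines, was called in either comparison. SULT1A1 had 19.7, 8.90 and 14.2 rpkM in HBE LIEA, A549 LIEA and HBE Smart-seq2, and SULT1A2 had 9.02, 4 and 6.90 rpkM. SULT1A4 had 40.4, 69.6 and 14.8 rpkM. The log2 differences of A549 to HBE in LIEA were -1.15 (-1.61 to -0.70), -1.17 (-1.96 to -0.44) and 0.78 (0.50 to 1.07). Of the windows of SULT1A4, 95.6% occur in SLX1A-SULT1A3, and of SULT1A1 and SULT1A2 31.2% and 29.8% occur in other listed genes, so the division of reads among them is uncertain. SULT1C2, SULT1E1 and the pseudogene SULT1C2P1 had at most 7 reads.

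**Figure D2:**
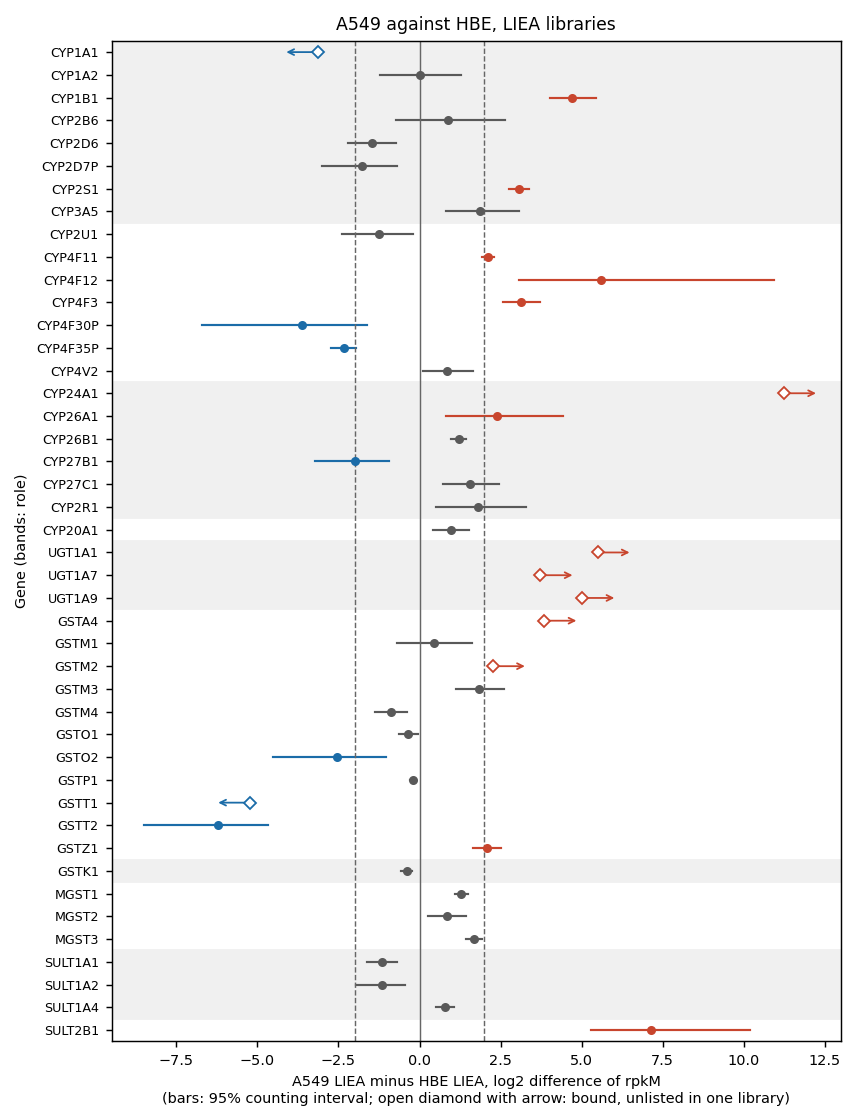
Log2 difference of rpkM, A549 LIEA minus HBE LIEA (x axis), of the 44 members compared (y axis, shaded by role), with 95% counting intervals as bars and the 4-fold limits as dashed lines. Members called higher in A549 are red, members called lower are blue, and open diamonds with arrows are bounds for members unlisted in 1 library, such as CYP24A1 at 11.24 and GSTT1 at -5.22.

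The second comparison set HBE LIEA against HBE Smart-seq2, which differ in method, platform and library but not in cell line. It shares the HBE LIEA library with the comparison of cell lines. Here 9 of 41 members (22%) were at least 4-fold apart, beside 21% of all 13578 genes. In LIEA 5 members were higher (12.2%, all genes 14.9%), namely CYP2D6, CYP2D7P, CYP4F30P, CYP4F35P and CYP26B1. Lower were 4 members (9.76%, all genes 6.06%), namely CYP1A1, CYP3A43, SULT2A1 and SULT2B1, of which CYP3A43 and SULT2A1 rest on 1 read in LIEA. With 10 reads or more in both HBE libraries, 4 of 30 members were called (13.3%, all genes 16.7%), 3 of them higher in LIEA (10%, all genes 12.6%) and 1 lower (3.33%, all genes 4.13%). When each difference was centred on genes of like GC content, 6 members were higher and 3 lower (22% of 41), beside 18.2% of 13183 genes called. Of the 5 higher members, 4 are pseudogenes or share windows with one, CYP26B1 being the exception.

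Set against both HBE libraries, A549 LIEA was at least 4-fold apart from each for 17 of 48 members (35.4%), beside 14% of all 14552 genes. The 13 higher members (27.1%, all genes 9.14%) were CYP1B1, CYP2S1, CYP4F3, CYP4F11, CYP4F12, CYP24A1, CYP26A1, UGT1A1, UGT1A7, UGT1A9, GSTA4, GSTM2 and SULT2B1. The UGT1A entries among them come from the same locus and are counted separately here. The 4 lower members (8.33%, all genes 4.85%) were CYP1A1, GSTT1, GSTT2 and GSTO2. GSTZ1, CYP27B1 and both CYP4F pseudogenes were called against HBE LIEA and not against both. A549 had no Smart-seq2 library here, so cell line and method cannot be told apart in the part of this count that uses HBE Smart-seq2.

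**Figure D3:**
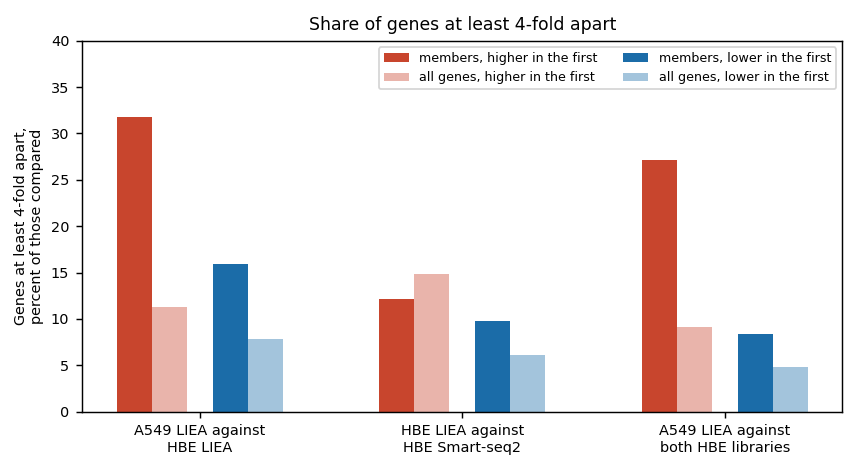
Percent of the genes compared that were at least 4-fold apart (y axis), for members (dark bars) and all genes (pale bars), higher (red) or lower (blue) in the library named first. For A549 LIEA against HBE LIEA the members stand at 31.8% higher and 15.9% lower, beside 11.3% and 7.87% of all genes, and for the 2 HBE libraries they stand at 12.2% and 9.76%, beside 14.9% and 6.06%.

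The difference between the HBE libraries tended to rise with GC content in the members and in all genes. Over the 30 members with at least 10 reads in both HBE libraries, Spearman's rho of the log2 difference with transcript GC was 0.369, and over all genes it was 0.387. With transcript length rho was 0.0256 over the members and 0.284 over all genes. These are descriptions over genes that share 2 libraries. The 11 members below 50% GC had a median log2 difference of -0.61 and 4 of them were higher in LIEA, and the 19 members at or above 50% had a median of 0.39 and 12 were higher in LIEA. MGST1, with the lowest GC of these members at 38.1%, lay on the other side at log2 1.22, and CYP1A1, at 53.1% GC, was the lowest at -3.74. Between the cell lines within LIEA, rho with GC was -0.285 over 26 members and 0.0427 over all genes, and rho with length was 0.336 and -0.109. The part of GC or length in any single difference was not tested.

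**Figure D4:**
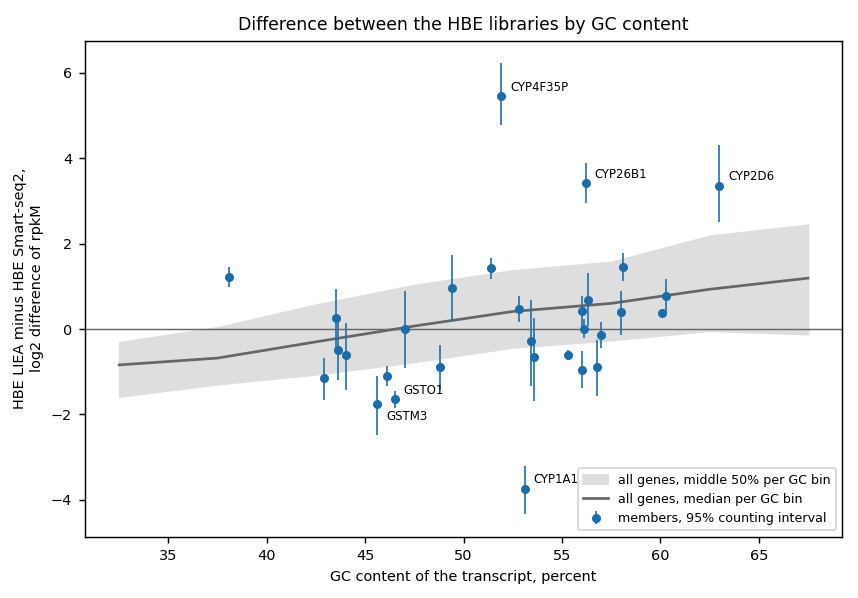
Log2 difference of rpkM, HBE LIEA minus HBE Smart-seq2 (y axis), by GC content of the transcript in percent (x axis), for the 30 members with at least 10 reads in both (points, with 95% counting intervals). The grey line and band are the median and the middle 50% of all genes in 5-point GC bins, which rise from -0.84 in the lowest to 1.19 in the highest bin.

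Of the electron donors of the P450 enzymes, none of 8 was at least 4-fold apart between the LIEA libraries, where 19.2% of all genes were. A list of 8 is too short to be set apart from that share. POR, the reductase that serves microsomal P450 enzymes, had 50.3 rpkM in HBE LIEA and 114 rpkM in A549 LIEA. Of the 10 genes that supply cofactors for conjugation, 3 were higher in A549 and none lower, beside the same 11.3% and 7.87% of all genes. The list median was log2 1.33 beside -0.13 over all genes compared. This list was chosen with earlier results of these data known, so its share cannot be read as that of an unselected set. UGDH, which makes the UDP-glucuronic acid used by UGT enzymes, had 11.9 and 164 rpkM. PAPSS2, which makes the sulfate donor of SULT enzymes, had 0.844 and 23.4 rpkM, and GSR, which regenerates reduced glutathione, had 14.1 and 111 rpkM. In HBE Smart-seq2 UGDH, PAPSS2 and GSR had 25, 0.421 and 7.68 rpkM, also below A549. The glutathione synthesis genes GCLC and GCLM lay below the call, at 15.7 and 51.5 rpkM and at 11.9 and 32.4 rpkM. Their HBE Smart-seq2 levels were 2.82 and 47.3 rpkM. For GCLM the A549 level thus lay between the HBE libraries, and for GCLC the HBE libraries were themselves more than 4-fold apart.

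Of the 20 other xenobiotic enzymes and exporters compared, 9 were higher in A549 and none lower, where 11.3% and 7.87% of all genes were. The list median was log2 1.70. These genes too were chosen with earlier results of these data known, so the count describes the list and is no unselected sample. The higher ones were the epoxide hydrolase EPHX1, the quinone reductase NQO1, the monooxygenase FMO5, the carboxylesterase CES1 and the exporters ABCB1, ABCC2, ABCC3, ABCC4 and ABCG2. EPHX1 and ABCC2 were also more than 4-fold apart between the HBE libraries. EPHX1 had 29.7 rpkM in HBE LIEA and 2.26 in HBE Smart-seq2, and ABCC2 had 7.73 and 1.79. In A549 LIEA they had 279 and 165 rpkM, above both HBE libraries. CES1 was not listed in HBE LIEA and had 178 rpkM (1488 reads) in A549 LIEA. NQO1 had 82.0 and 697 rpkM, and ABCC3, which exports glucuronide conjugates, had 9.25 and 355 rpkM. Among the regulators compared, HNF4A, a transcription factor of liver and gut, was higher in A549, at 18.5 rpkM against 0.496 rpkM in HBE LIEA, and VDR was lower. RXRA, the shared partner of nuclear receptors, had 57.3 and 14.4 rpkM, which fell just short of the 4-fold call, and 7.8 rpkM in HBE Smart-seq2, so that the A549 level lay between the HBE libraries. NFE2L2 had 26.8 and 27.4 rpkM and KEAP1, its repressor, had 57.1 and 70.3 rpkM, in HBE LIEA and A549 LIEA.

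The labels of the cell lines were set against marker genes. All 5 epithelial markers were listed in every library, and their summed rpkM was 1700, 8530 and 3440 in HBE LIEA, A549 LIEA and HBE Smart-seq2. In A549 LIEA nearly all of that sum was KRT8 and KRT18, at 3960 and 4300 rpkM, and the list median against HBE LIEA was log2 -0.46. EPCAM was lower in A549, at 7.29 rpkM against 57.1 in HBE LIEA, and CDH1 had 19.4 against 57.1 rpkM. The 5 airway basal markers summed to 1710, 9.07 and 6470 rpkM, with KRT5 at 552 rpkM in HBE LIEA and 1.88 in A549 LIEA. The alveolar type II markers SFTPA1, SFTPA2 and SFTPC were at 0 in all libraries while SFTPB had 1.24, 1.31 and 1.36 rpkM (21, 20 and 49 reads), and the list summed to 1.66, 1.38 and 1.69 rpkM. Of the hepatocyte markers APOA1 was at 0 throughout, and ALB had 2 reads in A549 LIEA, beside a list sum of 0.906 rpkM there. The leukocyte markers summed to at most 0.0887 rpkM, the endothelial to at most 2.08, the club, goblet and ciliated markers to at most 3.15, and the fibroblast markers, nearly all COL1A1, to 6.41, 3.91 and 1.46 rpkM.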

How the data were processed

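The values of 3 libraries were used, with 1 library per group. Mapping by the authors used FANSe2 against RefSeq RNA, with splice variants joined into 1 value per gene, and the deposited values are log2 rpkM with no pseudocount. The labels name the build hg19. Reads were recovered from the deposited log2 values with Python 3.11.15, numpy 2.4.6, pandas 2.3.3 and scipy 1.17.1. The HBE LIEA total was searched from 4200000 to 5000000 as the whole number at which low values gave whole transcript lengths up to 20000 bases (relative tolerance 4.5e-10), which held for 100% of 200 genes and for at most 26.0% at any other total. The other totals came from the most frequent ratio of values between libraries. Reads and length share a whole factor, which was chosen by GENCODE release 44 transcript lengths on GRCh37 and was above 1 for 1971 genes. Reads of 95 very abundant genes were approximated from annotated lengths. In each library 4 rows with repeated date-like names were left out.

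No test was made. Genes below 10 reads in both libraries of a comparison were left out, and unlisted genes were set at 3 reads. The members, lists and alternatives were chosen with earlier results of these data known. Members with an rpkM of at least 1 in some library are named, the others are given by counts. Shared sequence was counted as 43-base windows of 1 transcript per gene. Promoter sequences came from RefSeq on GRCh38.p14. Recovery and comparison were also run on simulated data, with the total searched over a narrower range. The simulated lengths were the recovered ones and the annotation was the same. The run is therefore no independent check of the factor chosen for a gene. The alternatives were another fold, another filter, centring, a TPM scale, a pseudocount and the smallest whole reads, and, chosen after seeing the data, the nearer HBE library, centring by GC and members with few shared windows. Bulk mRNA-seq and other libraries of the study were not analysed here. Inputs were dilutions of bulk mRNA, and the methods were compared on the same starting material. Some genes are not reported here by name.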

Additional observations from a re-analysis of the deposited data

How the results depend on the processing

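No paired analysis was possible because each group had 1 library. For the same reason no library could be left out. At a 2-fold call 33 members (75%) were at least that far apart between A549 and HBE LIEA, beside 5674 of all genes (41.4%). Between the HBE libraries 21 members (51.2%) were, beside 6884 of all genes (50.7%), a near equal share. With only genes listed in both libraries, 13 members were called between A549 and HBE LIEA (8 higher, 5 lower), which is 36.1% of those compared, beside 15.1% of all genes. On log2(rpkM + 1), 14 members (31.8%, 11 higher, 3 lower) were called between the cell lines, beside 1359 of all genes (9.92%). The same scale called 5 members (12.2%) between the HBE libraries, beside 1439 of all genes (10.6%). Counting any listed value as detected gave 55, 75 and 62 members in HBE LIEA, A549 LIEA and HBE Smart-seq2, beside 16073, 16711 and 16498 of all genes. The other alternatives kept each total of calls within 1.5 times of its value. Between the cell lines, centring gave 22 of 44 members (50%, 16 higher, 6 lower), beside 19.7% of all genes. A TPM scale gave 19 members (43.2%, all genes 19.1%) and the smallest whole reads gave 20 of 42 (47.6%, all genes 18.5%). Members with under 10% shared windows gave 16 of 31 (51.6%), and this filter was not applied to all genes. Between the HBE libraries the directions moved more than the totals, from 5 higher and 4 lower in the main count. Members with under 10% shared windows gave 2 higher and 4 lower of 29 compared (20.7%). An rpkM of at least 1 in place of 10 reads gave 5 higher and 2 lower of 34 (20.6%, all genes 20.7%). No difference of a named member that was called changed sign under centring, a TPM scale or the pseudocount. Over the named members' differences in both comparisons, centring moved 13 and left 69 inside their counting intervals, the TPM scale moved 14 and left 68, and the pseudocount moved 19 and left 63, where any shift of a bound counts as moved. With 1 library per group, the spread between libraries of 1 kind is unknown, and members below 10 reads could not be compared.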
